A study of Rattus norvegicus with 12 samples.

Results

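The genes described are 7 members of the regulator of G protein signalling (RGS) family, Rgs1, Rgs2, Rgs3, Rgs4, Rgs7, Rgs10 and Rgs16, taken by their gene names in the scanner files. They were chosen by the levels of Rgs1, for its fall by 9 h, so the difference of 9 h from 0.5 h is given as a description for all of them, with no test. For Rgs1 the comparison of 6 h with 3 h is the only one tested. All 7 were on the array, which listed 35287 gene names, and 6 passed the filter on dim probes, which left 29622 genes. The samples were L4 to L6 dorsal root ganglia of male Sprague-Dawley rats with no labelled genetic change, taken 0.5, 3, 6 or 9 h after a 1 cm segment of the left sciatic nerve had been resected under anaesthesia. Every group had the resection and no uninjured group is labelled, so the earliest baseline is 0.5 h after surgery. The labels give 24 rats, 6 in a group, and each time has 3 one-colour arrays, 12 altogether. The labels give the rats' weight and not their age, and they do not tie animals to arrays, so the p-values measure a spread between samples that may be technical.

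RGS proteins bind the active, GTP-loaded alpha subunit of a heterotrimeric G protein and speed its hydrolysis of GTP, which ends the signal of the receptor upstream. In a sensory ganglion such receptors include opioid, cannabinoid, adenosine and amine receptors on neurons and chemokine receptors on leukocytes. RGS genes differ by cell type: some are neuronal, and some, such as Rgs1, are known mainly from leukocytes.

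Probes of Rgs10 and Rgs4 are shown so that a reader can see which stretch of the transcript each call read out. The Rgs4 probe shown was called in 9 h against 3 h and the brighter one was not. Each is a 60-base oligonucleotide, written 5′ to 3′ in the sense of the transcript, with its position on the files' assembly, rn4.
Rgs10, chr1:187634849-187634908, minus strand: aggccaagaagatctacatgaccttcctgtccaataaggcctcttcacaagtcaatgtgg
Rgs4, second probe, chr13:85536780-85536839, minus strand: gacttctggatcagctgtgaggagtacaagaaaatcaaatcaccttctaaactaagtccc
The Rgs10 probe starts at base 280 of its transcript, and its longest run of bases in common with any other RGS probe on the array is 7. The second Rgs4 probe starts at base 376 and has a run of 11 in common with the Rgs13 probe. Of the 7 genes, 5 lie on chromosome 13 (Rgs1, Rgs2, Rgs4, Rgs7 and Rgs16), with Rgs10 on chromosome 1 and Rgs3 on chromosome 5. On rn4 the Rgs1 and Rgs2 probes are 232 kb apart, with the Rgs13 probe between them.

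Levels are log2 signals after subtraction of each array's 75th percentile, so a level of 0 is that percentile. A gene was called where limma's adjusted p over 29622 genes was under 0.05. The arrays lay on 5 slides and were scanned on 3 days. Each of 0.5, 3 and 9 h had a slide to itself, and 6 h had 2 slides to itself. No slide held arrays of different times, so slide and time cannot be told apart in any comparison, 6 h against 3 h included. Only the 3 h and 6 h slides shared a scan day. The share of probes well above background was 82.3 to 85.3% on the later arrays and 63.2 to 67.5% at 0.5 h. Defining markers of sensory neurons were well above background on all 12 arrays in 9 of 9 cases. The ganglia are a mixture of cells, and fewer cells of a type cannot be told apart from less RNA per cell.

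Rgs1, which in leukocytes shortens signalling from chemokine receptors, had the widest range of time means among the 6 measured genes, which restates the fall it was chosen for. Its signals were 259, 184 and 245 intensity units at 0.5 h, 80.0, 145 and 108 at 3 h, 41.3, 57.9 and 69.7 at 6 h, and 40.1, 57.4 and 66.7 at 9 h. The lowest 0.5 h array lay above every later array, the 3 h arrays lay above all 6 h and 9 h arrays, and the 6 h and 9 h arrays overlapped. The probe was well above background on 12 of 12 arrays.

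At 6 h Rgs1 had levels of -5.49, -4.89 and -4.84, against -4.48, -3.71 and -3.95 at 3 h. No array of 6 h reached the lowest of 3 h. The mean was -5.07 ± 0.36 at 6 h and -4.05 ± 0.40 at 3 h (SD, n = 3 each), a log2 difference of -1.03 (SE 0.27, 95% interval -1.63 to -0.42). Rgs1 thus fell, 2.04-fold lower at 6 h, with limma's adjusted p = 0.0399. It was the only one of the 6 measured genes called in this comparison, 1 lower and 0 higher, while 4.95% of all genes were called lower and 5.87% higher. Limma's unadjusted p was under 0.05 for 3 of the 6. The call was close to the threshold: it was kept in 4 of 12 fits that each left out 1 array, and leaving out any array of 6 h, replicate 2 or 3 of 3 h, replicate 1 or 3 of 0.5 h, or replicate 2 of 9 h ended it. Over the fits that ended it, limma's adjusted p was 0.0520 to 0.106, with Rgs1 lower at 6 h in each.

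In the comparisons not tested for Rgs1, its mean level was -2.99 ± 0.26 at 0.5 h and -5.11 ± 0.41 at 9 h (SD, n = 3 each). The log2 differences from 0.5 h were -1.06 at 3 h, -2.09 at 6 h and -2.12 at 9 h, the last being 4.34-fold lower. Between 9 h and 6 h the log2 difference was -0.03, so most of the difference lay between 0.5 and 6 h.

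The size depended on the background that was subtracted, and the Rgs1 spot was dim. Its brightness above the local background, before the scanner software's own correction, was 319, 243 and 326 units at 0.5 h, 101, 165 and 135 at 3 h, 70.3, 82.5 and 93.6 at 6 h, and 78.4, 98.4 and 113 at 9 h. On this scale too the 0.5 h arrays were the highest, and no 6 h array reached the lowest 3 h array, while 9 h and 3 h overlapped. With normexp background correction the log2 difference of Rgs1 in 6 h against 3 h was 0.06 (limma's adjusted p = 0.957). On 3 arrays normexp had fitted a background mean below 0 (-492, -653 and -29 units, against 3.98 to 17.9 on the others), and these arrays had 7, 6 and 1 spots darker than their local background, where the other 9 had 0 to 2. With the array's median background at such spots, a setting chosen after seeing the data, the difference was -0.58 (limma's adjusted p = 0.0328). The cause of the change with normexp was not tested. Plain normexp gave 0 calls for the 6 genes in any comparison. Quantile scaling (-0.94, adjusted p = 0.0519) and cyclic loess scaling (-0.94, adjusted p = 0.0534) also ended the call, as did a fit with no filter on dim probes (adjusted p = 0.0515) and one with only the 6 arrays compared (adjusted p = 0.0633).

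**Figure D1:**
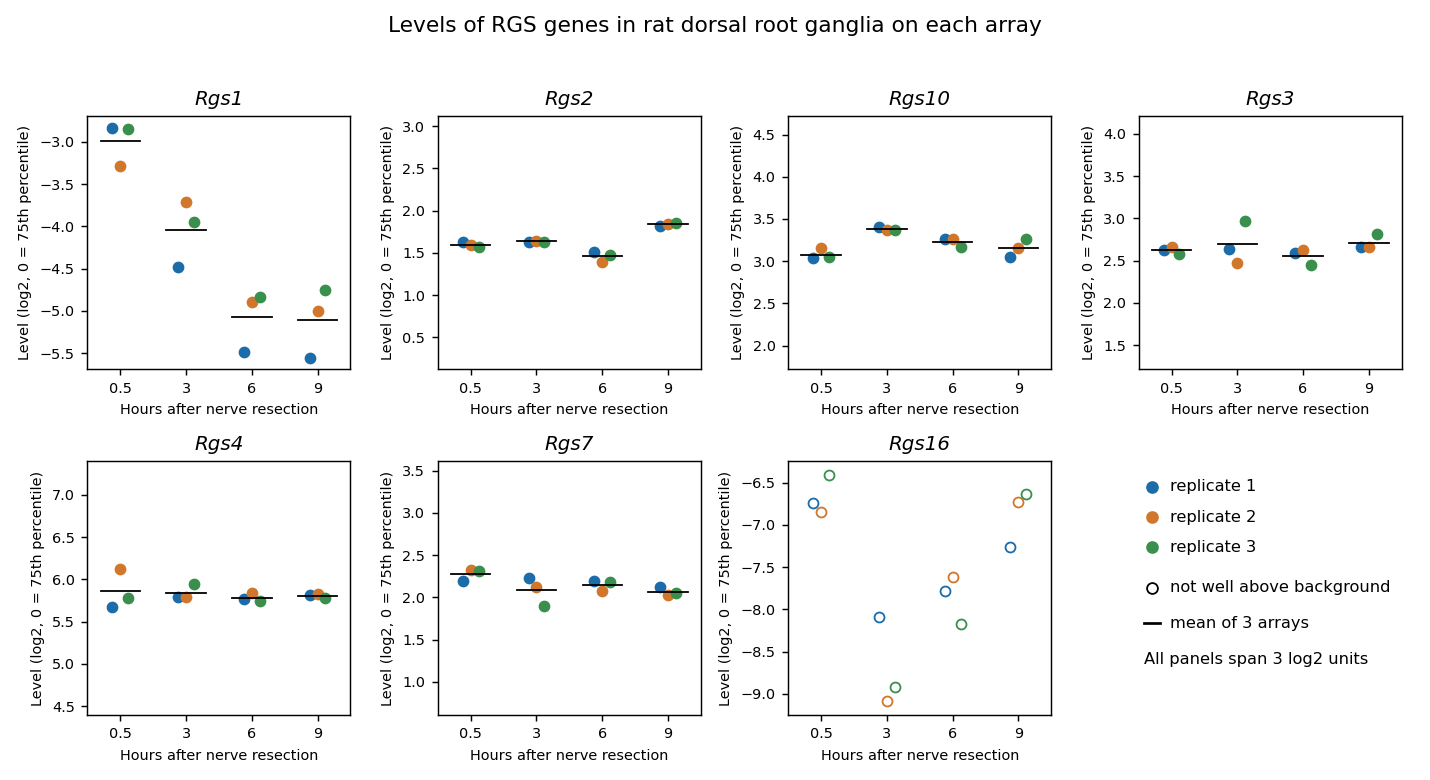
Level of each of the 7 RGS genes on every array (log2, 0 is the array's 75th percentile) against hours after nerve resection. Points are arrays coloured by replicate number, lines are means of 3 arrays, open points were not well above background, and all panels span 3 log2 units; Rgs1 is highest at 0.5 h and lowest at 6 and 9 h, and the other measured genes move far less.

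Markers of macrophages and microglia, cells that can carry Rgs1, differed between arrays of the same time. Of the 8 markers measured, 6 were well above background on all 12 arrays, and on the 0.5 h arrays Cd163 was well above background on 2 and Ptprc on 0. Their mean level, each marker centred on its own mean over the 12 arrays, was 0.02, -0.28 and -0.10 at 0.5 h, -0.52, 0.13 and 0.16 at 3 h, -0.15, 0.27 and 0.35 at 6 h, and -0.32, 0.25 and 0.20 at 9 h. At 4 of 4 times the array lowest in these markers was also the lowest in Rgs1. Pearson's r of these markers with Rgs1 over the 12 arrays was -0.08, and 0.94 with each time's mean removed. With time means removed, r was also 0.60 for lymphocyte and 0.62 for endothelial markers, and -0.62 for sensory neuron markers. These r carry no test. In 6 h against 3 h limma called 0 of the 8, with 0 at an unadjusted p under 0.05, and their median log2 difference was 0.14. Their part in the levels of Rgs1 was not tested. Lymphocyte markers, 7 measured, lay between -0.43 and -0.11 at 0.5 h, -0.30 and -0.09 at 3 h, -0.03 and 0.52 at 6 h, and 0.03 and 0.36 at 9 h. Limma called 1 of these 7 higher and 0 lower in 6 h against 3 h, beside 5.87% of all genes higher and 4.95% lower. The part of these markers in the levels of Rgs1 was not tested.

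**Figure D2:**
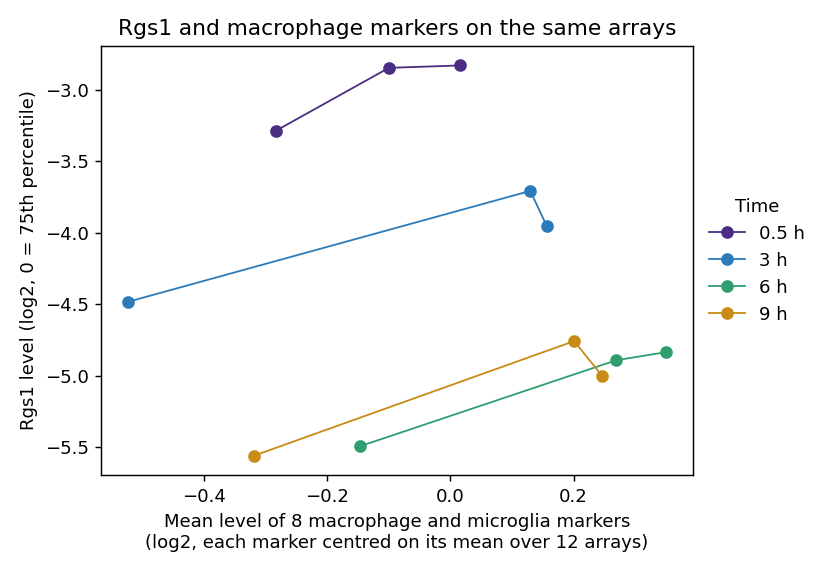
Level of Rgs1 (log2, 0 is the array's 75th percentile) against the mean level of 8 macrophage and microglia markers on the same array (log2, each marker centred on its mean over 12 arrays). Each point is an array, and lines join the 3 arrays of a time in order of the markers; the array lowest in the markers is the lowest in Rgs1 at 4 of 4 times, and the arrays of 0.5 h, of 3 h and of the later times lie at different heights, with 6 h and 9 h overlapping.

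Rgs2, which acts mainly on alpha subunits of the Gq class and is known as a gene quickly induced by activity and hormones, rose at 9 h. Its levels were 1.63, 1.596 and 1.57 at 0.5 h, 1.63, 1.64 and 1.63 at 3 h, 1.51, 1.39 and 1.47 at 6 h, and 1.82, 1.85 and 1.85 at 9 h. All 9 h arrays lay above all others, and all 6 h arrays lay below all others.

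Against 6 h the mean of Rgs2 was 1.84 ± 0.014 at 9 h and 1.46 ± 0.06 at 6 h (SD, n = 3 each), 1.30-fold higher (log2 difference 0.38, SE 0.05, 95% interval 0.27 to 0.49, limma's adjusted p = 0.000367). It was the only one of the other 5 measured genes called, 1 higher and 0 lower, and 19.5% of all genes were called higher in this comparison and 5.87% lower. The call was kept in 12 of 12 fits without 1 array. Against 3 h Rgs2 was 1.15-fold higher at 9 h (log2 difference 0.20, limma's adjusted p = 0.0163), and leaving out replicate 1 of 3 h gave an adjusted p of 0.0546. With only the arrays of these times in the fit it was 0.0648.

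Both calls of Rgs2 were kept with quantile and cyclic loess scaling and lost with median scaling. When arrays were scaled on their medians instead, Rgs2 had a log2 difference of 0.16 from 6 h (limma's adjusted p = 0.0795) and of 0.0037 from 3 h at 9 h (adjusted p = 0.972). The median over all genes was 0.11 in 9 h against 6 h under the main scaling and -0.11 under the median scaling. The same medians in 9 h against 3 h were 0.09 and -0.11. Relative to the median gene, Rgs2 was higher by 0.27 in 9 h against 6 h and by 0.11 in 9 h against 3 h under either scaling. Among all genes, 5787 were called higher and 1739 lower in 9 h against 6 h, and with median scaling 3521 and 6563.

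At 6 h against 3 h Rgs2 had a log2 difference of -0.18 (SE 0.05), with no overlap between the arrays and limma's adjusted p = 0.0501, just outside the threshold. In 3 h against 0.5 h its log2 difference was 0.04 (adjusted p = 0.635 by limma) and in 6 h against 0.5 h -0.14 (adjusted p = 0.0948). With no test, 9 h against 0.5 h gave 0.24. Endothelial markers, 5 measured of which 4 were well above background on all 12 arrays, were also higher at 9 h: their centred mean was 0.11, 0.43 and 0.21 at 9 h, against -0.26, -0.08 and -0.05 at 6 h. Limma called 1 of these 5 higher in 9 h against 6 h, beside 19.5% of all genes. The median log2 difference there was 0.32 for endothelial, 0.26 for Schwann, 0.24 for satellite glia and -0.12 for lymphocyte markers. Pearson's r of Rgs2 with the endothelial markers over the 12 arrays was 0.73, and -0.38 with each time's mean removed. The part of any of these cells in the level of Rgs2 was not tested.

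Rgs10, a small RGS protein of microglia, other leukocytes and neurons that acts on alpha subunits of the Gi class, rose at 3 h. Its levels were 3.03, 3.16 and 3.04 at 0.5 h, 3.403, 3.36 and 3.37 at 3 h, 3.26, 3.26 and 3.17 at 6 h, and 3.05, 3.16 and 3.26 at 9 h. The 3 h arrays lay above all 9 others, and those of 6 h lay above those of 0.5 h.

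The mean of Rgs10 was 3.38 ± 0.02 at 3 h and 3.08 ± 0.07 at 0.5 h (SD, n = 3 each), 1.23-fold higher (log2 difference 0.30, SE 0.07, 95% interval 0.15 to 0.45, limma's adjusted p = 0.0108). Of the 5 genes tested in this comparison it was the only one called, 1 higher and 0 lower, where 10.6% of all genes were called higher and 12.7% lower. The call was kept in 12 of 12 fits without 1 array. In 9 h against 3 h Rgs10 fell, with a log2 difference of -0.22 (SE 0.07, limma's adjusted p = 0.0372), so that 2 of 5 genes were called there, Rgs2 higher and Rgs10 lower, against 17.5% of all genes higher and 5.94% lower. This fall was lost without any one of the 3 h arrays, without replicate 2 of 6 h and without replicate 1 or 2 of 9 h (adjusted p 0.0526 to 0.111 by limma), with only the arrays compared (0.105), and with quantile (0.113) or cyclic loess scaling (0.104). Relative to the median gene Rgs10 was lower by 0.31 at 9 h than at 3 h.

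The other differences of Rgs10 were not called by limma in the main fit, at -0.15 in 6 h against 3 h (adjusted p = 0.183), 0.15 in 6 h against 0.5 h (adjusted p = 0.169) and -0.07 in 9 h against 6 h (adjusted p = 0.472). With median scaling the difference in 9 h against 6 h was -0.30 and was called (limma's adjusted p = 0.00725). Relative to the median gene it was -0.18 under either scaling. With no test, 9 h against 0.5 h gave 0.08.

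**Figure D3:**
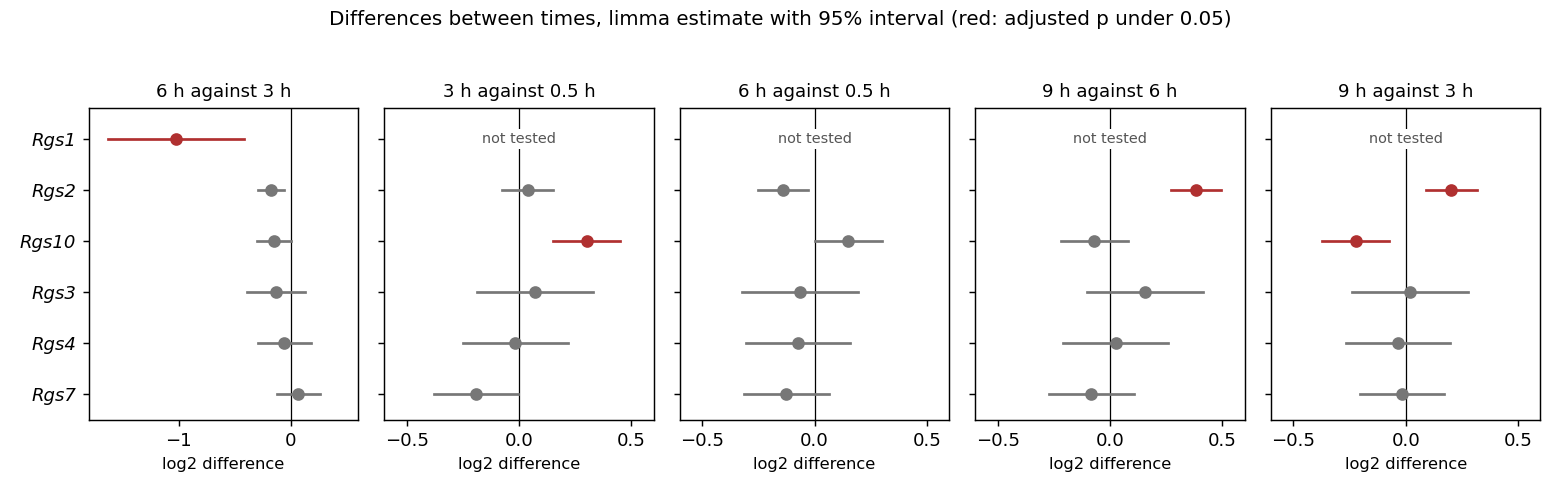
Log2 difference between times for the 6 measured RGS genes, by comparison, with limma's 95% interval; red marks an adjusted p under 0.05, and the axis of 6 h against 3 h is wider than the others. Rgs1 is called in 6 h against 3 h, Rgs10 in 3 h against 0.5 h and 9 h against 3 h, and Rgs2 in 9 h against 6 h and 9 h against 3 h.

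Rgs3, Rgs4 and Rgs7 had no call on the probe that stands for each gene, which does not show that they did not differ. Rgs3 is an RGS protein with several isoforms that acts on Gi and Gq alpha subunits. Its levels were 2.62, 2.66 and 2.58 at 0.5 h, 2.64, 2.47 and 2.97 at 3 h, 2.59, 2.63 and 2.45 at 6 h, and 2.66, 2.66 and 2.81 at 9 h. Replicate 3 of 3 h was the highest of the 12 arrays, and all times overlapped except 9 h, whose arrays lay above those of 6 h.

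The log2 differences of Rgs3 were -0.14 in 6 h against 3 h (limma's adjusted p = 0.491), 0.07 in 3 h against 0.5 h (adjusted p = 0.700), -0.06 in 6 h against 0.5 h (adjusted p = 0.760), 0.15 in 9 h against 6 h (adjusted p = 0.359) and 0.02 in 9 h against 3 h (adjusted p = 0.926). A dimmer probe of Rgs3, 45.3 kb away on rn4, was called higher in 3 h against 0.5 h, though the difference between the probes was not tested. The dimmer probe had levels of -0.55, -0.64 and -0.56 at 3 h, against -0.97, -0.76 and -0.79 at 0.5 h, with no overlap (log2 difference 0.26, SE 0.07, limma's adjusted p over probes = 0.0203). On the array where Rgs3 was highest, replicate 3 of 3 h, the centred mean of skeletal muscle markers was -1.23, against 1.25 and 1.19 on the other 3 h arrays. It was also -1.27 and -1.58 on replicates 1 and 2 of 0.5 h, where Rgs3 had levels of 2.62 and 2.66. Sensory neuron markers were at 0.16 on replicate 3 of 3 h, against 0.11 and -0.02 on the other 3 h arrays. Adipocyte markers, 2 measured, were at -2.04 on replicate 3 of 3 h, against 1.59 and 1.23 on the other 3 h arrays. With each time's mean removed, Pearson's r with Rgs3 was -0.88 for adipocyte, -0.57 for skeletal muscle, -0.66 for pericyte and 0.70 for sensory neuron markers. These r carry no test, and the part of any of these lists was not tested.

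Rgs4, a neuronal RGS protein that acts on Gi and Gq alpha subunits and dampens opioid receptor signalling, had on its brighter probe the narrowest range of time means of the 6 measured genes. Levels of this probe were 5.67, 6.12 and 5.78 at 0.5 h, 5.79, 5.79 and 5.95 at 3 h, 5.77, 5.84 and 5.75 at 6 h, and 5.82, 5.83 and 5.79 at 9 h. Replicate 2 of 0.5 h was the highest array, and every pair of times overlapped.

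The log2 differences of this probe were -0.06 in 6 h against 3 h (limma's adjusted p = 0.757), -0.02 in 3 h against 0.5 h (adjusted p = 0.931), -0.07 in 6 h against 0.5 h (adjusted p = 0.687), 0.02 in 9 h against 6 h (adjusted p = 0.887) and -0.03 in 9 h against 3 h (adjusted p = 0.853, 95% interval -0.27 to 0.20). The second Rgs4 probe, whose sequence is given above, starts 2266 bases upstream in the same transcript. Its levels were 2.25, 2.66 and 2.31 at 0.5 h, 2.39, 2.37 and 2.51 at 3 h, 2.24, 2.30 and 2.23 at 6 h, and 2.00, 2.20 and 2.04 at 9 h, so that all 9 h arrays lay below all others. It was called lower in 9 h against 3 h (log2 difference -0.35, SE 0.11, limma's adjusted p over probes = 0.0397), unlike the brighter probe. The difference between the probes itself was not tested.

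Rgs7, which works in neurons in a complex with the beta subunit Gnb5, had levels of 2.19, 2.32 and 2.31 at 0.5 h, 2.23, 2.12 and 1.90 at 3 h, 2.20, 2.08 and 2.18 at 6 h, and 2.12, 2.02 and 2.06 at 9 h. All 9 h arrays lay below all 0.5 h arrays, and the other pairs of times overlapped. In 3 h against 0.5 h the log2 difference was -0.19 (unadjusted p = 0.0467 and adjusted p = 0.131 by limma). Under quantile scaling (-0.22, adjusted p = 0.0498) and cyclic loess scaling (-0.23, adjusted p = 0.0449) it was called. The others were 0.07 in 6 h against 3 h (adjusted p = 0.650), -0.13 in 6 h against 0.5 h (adjusted p = 0.362), -0.08 in 9 h against 6 h (adjusted p = 0.506) and -0.02 in 9 h against 3 h (adjusted p = 0.910). With median scaling the difference in 9 h against 6 h was -0.31 and was called (limma's adjusted p = 0.0388). Relative to the median gene it was -0.196 under either scaling.

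In 6 h against 0.5 h limma called 0 of the 5 genes tested, with Rgs2 and Rgs10 at an unadjusted p under 0.05, where 4.28% of all genes were called higher and 9.07% lower. Between 9 h and 0.5 h the arrays did not overlap for 3 of 6 genes, Rgs1 and Rgs7 lower and Rgs2 higher, and they did not overlap for 48.9% of all genes. The last 3 genes had differences of 0.09 for Rgs3, -0.05 for Rgs4 and 0.08 for Rgs10. Rgs16, an RGS gene induced in activated lymphocytes and in liver, was not well above background on any of the 12 arrays, with signals of 3.47 to 20.7 units, so it has neither a level nor a fold here.

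The other RGS genes measured had narrower ranges than Rgs1. Among 17 RGS genes measured, the range of the 4 time means was 2.12 log2 units for Rgs1 and 1.03 for Rgs18, the next. It was 0.38 for Rgs2, 0.30 for Rgs10, 0.21 for Rgs7, 0.15 for Rgs3 and 0.07 for Rgs4, the last of the 17, with a median of 0.40 over all 29622 genes. For Rgs1 the range is its difference between 0.5 h and 9 h, by which it was chosen, so its place is a description only. The value for Rgs4 is that of its brighter probe, and on the second probe the range was 0.35.

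Of 16 other RGS genes and binding proteins listed, 12 were on the array and 11 were tested. Limma called 0 of the 11 higher and 1 lower in 6 h against 3 h, 1 higher and 1 lower in 3 h against 0.5 h, 1 higher and 0 lower in 9 h against 6 h, and 1 each way in 9 h against 3 h. Their median log2 difference in 6 h against 3 h was -0.10, beside -0.07 over all genes. Of all genes, 5.87% were called higher and 4.95% lower in 6 h against 3 h. The shares were 10.6% and 12.7% in 3 h against 0.5 h. They were 19.5% and 5.87% in 9 h against 6 h, and 17.5% and 5.94% in 9 h against 3 h. Rgs6 was the gene called higher in 3 h against 0.5 h. It was well above background on 0 arrays at 0.5 h, so no fold is given. Rgs17, a neuronal RGS protein of the Gz class, fell in 6 h against 3 h (log2 difference -0.43, SE 0.07, limma's adjusted p = 0.00533) and in 9 h against 3 h (-0.58, adjusted p = 0.000615). Its mean level was -0.61 ± 0.035 at 6 h and -0.18 ± 0.14 at 3 h (SD, n = 3 each). Rgs14, which like Rgs10 and Rgs12 belongs to the R12 subfamily, rose in 9 h against 6 h (log2 difference 0.55, limma's adjusted p = 0.000678) and was named after its values were seen. Both kept these calls in 12 of 12 fits without 1 array, and with the mean of its probes that of Rgs17 in 6 h against 3 h was lost. The neighbours of Rgs1 on chromosome 13 had other mean courses: Rgs2 was highest at 9 h and Rgs18 at 6 h, and Rgs13 was too dim to be tested. The Rgs18 arrays of a time lay far apart (SD 0.83 at 6 h and 0.88 at 3 h). Its difference in 6 h against 3 h was not called (limma's adjusted p = 0.248).

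**Figure D4:**
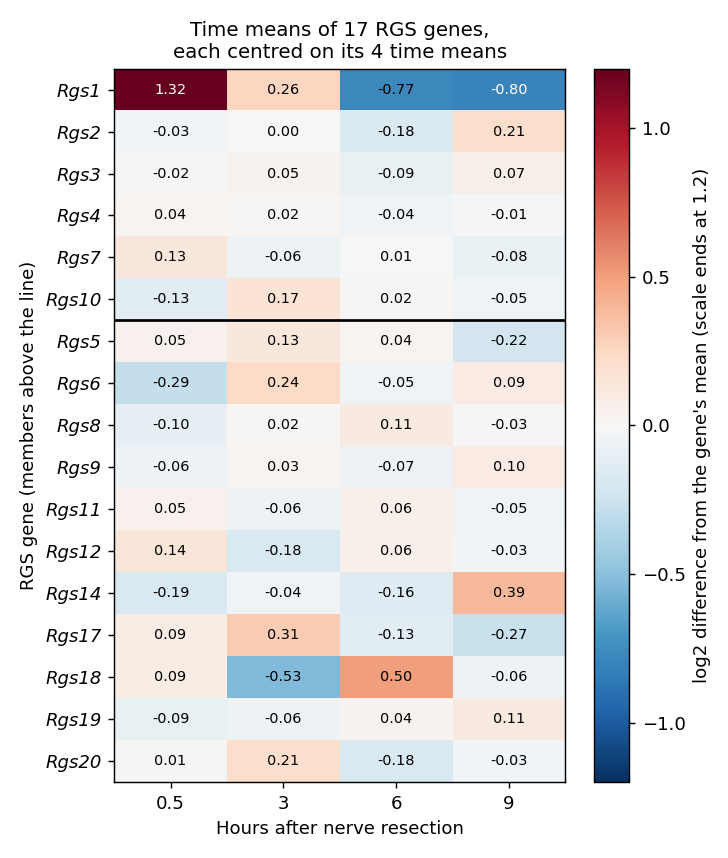
Mean level of 17 RGS genes at each time, each gene centred on its own 4 time means (log2, red higher, blue lower, colour scale ending at 1.2), with the 6 measured members above the line and other RGS genes below. Rgs1 has the strongest colours, from 1.32 at 0.5 h to -0.80 at 9 h, and Rgs18 the next, from -0.53 at 3 h to 0.50 at 6 h.

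The partners of RGS proteins were read from lists of G protein subunits, effectors and receptors. For comparison, 5.87% of all genes were called higher and 4.95% lower in 6 h against 3 h. In 3 h against 0.5 h the shares were 10.6% and 12.7%. Of 13 alpha subunits, the direct substrates, limma called 2 higher and 0 lower in 6 h against 3 h. They were the inhibitory subunits Gnai2 (log2 difference 0.36, SE 0.07, limma's adjusted p = 0.0103) and Gnai3 (0.36, SE 0.08, adjusted p = 0.0200). Gnai3 had fallen in 3 h against 0.5 h (-0.49, adjusted p = 0.00254), the only one of the 13 called there. The Gnai3 call in 6 h against 3 h was lost without replicate 1 or 3 of 3 h or without replicate 1 or 3 of 6 h (limma's adjusted p 0.0513 to 0.0769), and that of Gnai2 was kept in 12 of 12 such fits. Of 14 beta and gamma subunits, 0 were called in 6 h against 3 h, with 2 at an unadjusted p under 0.05, and 3 higher and 1 lower in 3 h against 0.5 h, led by the gamma subunit Gng3 (0.51, limma's adjusted p = 0.00946).

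Among 17 effectors, limma called 2 higher and 2 lower in 6 h against 3 h and 1 higher and 2 lower in 3 h against 0.5 h. The shares of all genes were 5.87% higher and 4.95% lower, and 10.6% and 12.7%, in the same order. The phospholipase Plcb1, a target of Gq, fell in 6 h against 3 h (log2 difference -0.51, limma's adjusted p = 0.00657). The adenylyl cyclase Adcy9 had fallen in 3 h against 0.5 h (-0.78, limma's adjusted p = 5.08e-05). Both kept these calls in 12 of 12 fits without 1 array. Of 8 receptor kinases and arrestins, which switch receptors off by another route, 0 were called in 6 h against 3 h, with 2 at an unadjusted p under 0.05, and 2 were called higher in 3 h against 0.5 h. One was Adrbk1, the kinase GRK2 (0.43, limma's adjusted p = 0.00113). The other, Adrbk2, was well above background on 0 arrays at 0.5 h, so no fold is given.

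Of 25 receptors of sensory neurons, limma called 2 higher and 0 lower in 6 h against 3 h, Mrgprd and Cnr1, and 4 higher and 2 lower in 3 h against 0.5 h. Of all genes, 5.87% were called higher and 4.95% lower in 6 h against 3 h. The shares were 10.6% and 12.7% in 3 h against 0.5 h. Among the receptors called higher in 3 h against 0.5 h, Npy2r and Oprm1 were well above background on 0 arrays at 0.5 h. Mrgprd, a receptor of nociceptors of the skin, fell in 3 h against 0.5 h (log2 difference -1.33, limma's adjusted p = 0.000971), a call kept in 12 of 12 fits without 1 array. The calls in 6 h against 3 h were lost in 6 of 12 such fits for Mrgprd and in 5 for Cnr1, whose difference turned to -0.05 with the mean of its probes. Of 10 leukocyte chemoattractant receptors, whose signals Rgs1 is known to shorten, limma called 0 in 6 h against 3 h, with 2 at an unadjusted p under 0.05, and 2 higher in 9 h against 6 h. Those were Ccr7 (log2 difference 1.93, limma's adjusted p = 7.02e-05) and Cxcr5 (1.89, adjusted p = 0.00126), receptors that guide lymphocytes, and both were named after their values were seen. The median log2 difference of the 10 was 0.31 in 6 h against 3 h and 0.51 in 9 h against 6 h, beside -0.07 and 0.11 over all genes. In 9 h against 6 h, 19.5% of all genes were called higher and 5.87% lower. Of the 7 lymphocyte markers, limma called 1 higher and 0 lower in 9 h against 6 h, with a median log2 difference of -0.12, and their part in these receptors was not tested. With plain normexp the calls of Rgs17, Rgs14, Gnai2, Gnai3, Gng3, Ccr7 and Cxcr5 were lost, and those of Plcb1, Adrbk1, Adcy9 and Mrgprd in the comparisons given with values were kept.

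Among the genes whose levels over the 12 arrays were most like those of Rgs1, by Pearson's r over 10594 named genes well above background on all arrays, were Rasd1 (0.945), Slk (0.944), Dusp1 (0.944) and Gkap1 (0.940). Time means of Dusp1, a phosphatase of MAP kinases, were -0.17 at 0.5 h, -0.66 at 3 h, -1.28 at 6 h and -1.39 at 9 h. Those of Rasd1, a Ras-like GTPase induced by dexamethasone, were -0.51, -0.88, -1.19 and -1.09 at the same times. Like Rgs1, both were highest at 0.5 h and lowest at 6 or 9 h, over a smaller range. For the other genes the closest were Tacr2 for Rgs2 (r = 0.964), Gpr56 for Rgs3 (0.960), Sspo for Rgs4 (0.906), Cops3 for Rgs7 (0.949) and Med25 for Rgs10 (0.959). These r describe 12 arrays that share 4 times and 5 slides, and carry no test. Among the 6 measured RGS genes themselves r lay between -0.60 (Rgs3 with Rgs7) and 0.40 (Rgs3 with Rgs4).

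The promoters of the chromosome 13 neighbours Rgs1 and Rgs2, which followed different courses, are shown for their base composition and a short motif. Each is the 250 bases before the annotated start, on the minus strand of the RefSeq assembly GRCr8, written 5′ to 3′ with the letters TGACG, read on the other strand as CGTCA, in capitals.
Rgs1, chr13:58573188-58573437: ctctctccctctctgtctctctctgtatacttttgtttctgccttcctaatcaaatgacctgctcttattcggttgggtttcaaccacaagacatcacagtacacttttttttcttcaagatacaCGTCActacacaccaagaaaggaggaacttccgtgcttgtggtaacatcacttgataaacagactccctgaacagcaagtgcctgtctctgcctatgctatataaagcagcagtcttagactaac
Rgs2, chr13:58352667-58352916: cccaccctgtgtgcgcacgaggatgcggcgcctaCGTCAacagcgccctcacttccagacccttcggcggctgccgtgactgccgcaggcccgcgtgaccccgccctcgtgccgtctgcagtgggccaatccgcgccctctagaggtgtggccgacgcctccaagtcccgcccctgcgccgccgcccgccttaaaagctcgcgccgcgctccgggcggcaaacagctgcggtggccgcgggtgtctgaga
G and C made up 42.8% of the Rgs1 window and 72.4% of the Rgs2 window. The motif TGACG, the core of the cyclic AMP response element, began 125 bases before the start of Rgs1 and 216 before that of Rgs2. Searched on both strands, it was found in 4 of the 7 promoters (Rgs1, Rgs2, Rgs3 and Rgs4) and in 18.2% of 33469 rat promoters of the same length. The full element TGACGTCA, which contains it, was found in 0 of 7 and in 1.59% of all, and the AP-1 motif TGANTCA in 0 of 7 and 6.34%. The E-box CACGTG was found in that of Rgs7 alone and in 5.59% of all promoters. The motifs were chosen with the expression values known, and a match is a string of letters, not a measured binding site.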

How the data were processed

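Total RNA of 12 samples, 3 per time, was labelled with Cy3 and hybridised to one-colour Agilent arrays, per the labels' protocols. The deposited value of a spot is a linear intensity that Feature Extraction 10.5.1.1 had already corrected for background, per the file headers. A table of all arrays, also deposited, was identical (largest difference 0). Of 45018 spots, 43379 were not controls; outlier spots were left out (76 to 218 per array), and 0 spots were saturated. From the deposited intensity values, log2 was taken and each array's 75th percentile subtracted. A probe was kept if every array of some time showed it well above background (34836 of 41012), and each gene name was represented by its brightest kept probe.

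Times were compared in 1 fit over 12 arrays (limma 3.58.1 in R 4.3.3, with files read by its data.table package, version 1.17.8), with Benjamini-Hochberg adjustment over 29622 genes per comparison. Figures were drawn with matplotlib 3.10.9 in Python 3.11.15. The fit was tested on simulated data with known changes. Replicate numbers come from the titles. Same-numbered arrays did not deviate together (r of their deviations from the time means -0.133 to 0.223 over the 6 pairs of times, not over 0.1 in every pair), so the numbers were not taken to pair samples.

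The members, lists and motifs were chosen with earlier results of these data known. The naming rule took the 7 members with all their probes, from each list of G protein signalling genes the called genes with the 2 largest increases and decreases in 6 h against 3 h and in 3 h against 0.5 h, and the genes most like each member, 5 for Rgs1 and 3 for each other. The text gives some of these, a few results are not reported here, and genes named after their values were seen are marked. Alternatives were normexp background correction, quantile, cyclic loess and median scaling, other probe filters, the mean of a gene's probes, another variance model, fewer arrays, a replicate block, slide as a block and leaving out each array; 2 settings were added after seeing the data. Gene names are the files'; accessions of 16336 probes (39.8%), 7 member probes among them, matched RefSeq names on GRCr8. Sequences of promoters are RefSeq's, and those of probes are from the scanner files. The number of arrays limits the precision.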

Additional observations from a re-analysis of the deposited data

How the results depend on the processing

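The 6 measured genes were refitted in 11 planned settings, 12 fits without 1 array and 2 settings added after seeing the data (normexp with each array's median background at spots below their local background, and the other probe of Rgs3 and Rgs4). The number of the 6 genes called in 6 h against 3 h, 1 in the main fit, was 0 with normexp, quantile scaling, cyclic loess scaling, no filter on dim probes and only the arrays of the times compared, 2 with the filter on all 12 arrays and with a variance trend, 3 with slide as a random block, and 0 to 1 without 1 array. In 3 h against 0.5 h, main 1, it was 0 with normexp and 2 with quantile scaling, cyclic loess scaling, slide as a block and the other probe. In 6 h against 0.5 h, main 0, it was 1 with median scaling, 2 with slide as a block and 1 with the added normexp setting. In 9 h against 6 h, main 1, it was 0 with normexp and 2 with median scaling. Those 2 were Rgs7 and Rgs10, both lower, while the Rgs2 call of the main fit was lost. In 9 h against 3 h, main 2, it was 0 with normexp and with only the arrays compared, 1 with quantile, median and cyclic loess scaling, the replicate block and the added normexp setting, 3 with the other probe, and 0 to 2 without 1 array. The untested difference of Rgs1 in 9 h against 0.5 h was -0.47 with normexp, -2.56 with cyclic loess and -1.42 with the added normexp setting, and -2.29 to -1.89 without 1 array. The fitted background of normexp is given with Rgs1, and the cause of these changes, those with normexp included, was not tested.

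Signs turned for Rgs1 in 6 h against 3 h with normexp (0.062) and otherwise in differences that were not called or not tested. The untested difference of Rgs1 was 0.45 in 9 h against 3 h and 0.39 in 9 h against 6 h with normexp (main -1.06 and -0.03), 0.084 in 9 h against 6 h with the added normexp setting, and -0.24 to 0.19 there without 1 array. Rgs4 in 6 h against 3 h was 0.040 with quantile scaling, 0.028 with cyclic loess and 0.026 with the added normexp setting. Rgs2 in 3 h against 0.5 h was -0.073 with both normexp settings. Rgs4 in 3 h against 0.5 h was 0.056 with median scaling and 0.014 with the other probe. In 6 h against 0.5 h Rgs3 was 0.034 with median scaling, 0.050 with the mean of its probes and 0.16 with the other probe, and Rgs4 was 0.023 with median scaling. In 9 h against 6 h Rgs3 was -0.07 with median scaling, and Rgs4 was -0.20 with median scaling, -0.00082 with cyclic loess, -0.079 with the mean of its probes and -0.18 with the other probe. In 9 h against 3 h Rgs3 was -0.13 with normexp, -0.18 with median scaling and -0.015 with the added normexp setting, Rgs4 was 0.045, 0.027 and 0.083 with quantile, cyclic loess and the added normexp setting, and Rgs7 was 0.013, 0.023 and 0.069 with the same 3 settings. Without 1 array, Rgs3 ranged from -0.25 to 0.0043 in 6 h against 3 h, from -0.068 to 0.18 in 3 h against 0.5 h and from -0.092 to 0.16 in 9 h against 3 h. Rgs4 ranged from -0.11 to 0.12 in 3 h against 0.5 h, from -0.17 to 0.058 in 6 h against 0.5 h and from -0.061 to 0.019 in 9 h against 3 h. Rgs7 ranged from -0.024 to 0.14 in 6 h against 3 h and from -0.11 to 0.054 in 9 h against 3 h.

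With the replicate number as a block the fall of Rgs10 in 9 h against 3 h was lost (-0.22, limma's adjusted p = 0.0679), and no other call among the 6 genes changed; the numbers were not found to pair the arrays. Slides correlated at -0.255, which makes the p-values of that block smaller. Over all genes, normexp called 308 in 6 h against 3 h, 650 in 3 h against 0.5 h, 1 in 6 h against 0.5 h, 167 in 9 h against 6 h and 240 in 9 h against 3 h, and slide as a block 8130, 14076, 9018, 12589 and 13835, where the main fit called 3207, 6895, 3954, 7526 and 6953. Counts also moved by over 1.5 times without the filter (11623 in 3 h and 8974 in 6 h against 0.5 h), with only the arrays compared (4538 and 2428), for 6 h against 0.5 h with cyclic loess (6456) and the added normexp setting (6396), and with the filter on all 12 arrays (4610 in 9 h against 6 h, 4556 in 9 h against 3 h). Without 1 array the lowest counts were 1653, 4537, 2154, 5439 and 4718 in the order above. Median scaling moved the balance of higher and lower calls: 1691 and 903 in 6 h against 3 h (main 1740 and 1467), 4697 and 2813 in 3 h against 0.5 h (main 3142 and 3753), 2569 and 1672 in 6 h against 0.5 h (main 1267 and 2687), and 3287 and 6687 in 9 h against 3 h (main 5194 and 1759). Quantile scaling gave 2165 and 1727 in 6 h against 0.5 h, 3250 and 3631 in 9 h against 6 h and 2892 and 2945 in 9 h against 3 h. The 3 arrays per time limit every comparison.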
